A study of Homo sapiens with 4 samples.

Results

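The ribosome biogenesis factors described here are 45 named human genes for nucleolar and rRNA processing proteins and RNA polymerase I subunits. They were read from the probe sets that the platform's gene table lists for 1 of these genes alone. By this rule 37 of the 45 were read, from 52 probe sets, out of 11963 genes on the arrays. NOP56, DKC1 and BOP1, whose probe sets are listed with further genes, and NOP58, GNL3, NOB1, EBNA1BP2 and DDX18 were not analysed here.

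A ribosome is built in the nucleolus, where RNA polymerase I transcribes the rDNA repeats into a long precursor rRNA. Small nucleolar RNPs modify and help to cut this precursor, and large assemblies of proteins, many of them RNA helicases and WD-repeat proteins, fold it into pre-ribosomal particles of the small and the large subunit. Genes of this pathway are well known as targets of the transcription factor MYC, and their output is tied to growth factors and to cell growth, also in breast cancer cells.

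The study asked which genes depend on PIAS1, a SUMO ligase and repressor of transcription, in the breast cancer line MDA-MB231. Cells with a stable lentiviral PIAS1 shRNA2 or a stable control shRNA of scrambled sequence, both selected in puromycin, were grown for 30 h in stem cell medium (SCM) or in DMEM with 10% FBS. SCM is a serum-free medium with EGF, basic FGF, insulin and albumin. Total RNA of the 4 conditions, PIAS1 shRNA2 in SCM, control shRNA in SCM, PIAS1 shRNA2 in DMEM and control shRNA in DMEM, was hybridised to 1 Affymetrix array each. Each shRNA was present as 1 selected cell population, and a single hairpin against PIAS1 was profiled. The media differed in basal medium, in serum and in every added factor together. As there was 1 array per condition, no spread between replicates was measured, no difference has a test, and each value below is a ratio of 2 arrays.

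The values were MAS5 signals, a linear measure of probe set brightness that had been scaled to a common mean per array. Signals of 1 probe set are therefore compared across arrays, relative to the rest of the array, and those of different genes are not set against each other. In RNA of a whole culture, fewer cells that express a gene and less of its RNA per cell cannot be told apart. A background floor of 213 was taken from 94 probe sets of 64 genes of other tissues, and 62.2% to 65.7% of all probe sets were above it. The median signal was between 569 and 605 in the 4 arrays. For ACTB the 3' to 5' signal ratio was 1.11 and 1.07 in SCM and 0.946 and 0.982 in DMEM, PIAS1 shRNA2 cells first. For GAPDH it was 0.879 and 0.834 in SCM and 0.858 and 0.860 in DMEM, in the same order. PIAS1 had 671 in PIAS1 shRNA2 cells against 1814 in control shRNA cells in SCM, and 512 against 1383 in DMEM, 37.0% of control in each medium. Its other 2 probe sets gave 77.9% and 31.5% of control in SCM and 23.1% and 23.8% in DMEM. These percentages are of deposited signals, and the 23.1% rests on a signal of 158, below the floor of 213. All 8 markers fixed for MDA-MB231, among them VIM and CD44, were above the floor in every array, whereas of 6 luminal or epithelial genes expected to be low, PGR, CDH1 and FOXA1 were below it throughout, ESR1 was above it in 3 arrays and GATA3 and TFF1 in all 4.

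All 37 factors were above the floor in at least 1 array and 36 in all 4, with signals between 200 and 51832. In SCM the ribosome biogenesis factors were lower as a group in both cell lines. Their median log2 ratio of SCM over DMEM was -1.15 in PIAS1 shRNA2 cells and -1.17 in control shRNA cells, which is 2.23-fold and 2.25-fold lower, while the median over the 9374 genes above the floor was 0 in both lines. In PIAS1 shRNA2 cells 34 of the 37 were at least 1.5-fold lower in SCM, against 20.4% of all genes, and 29 were at least 2-fold lower, against 9.97%. In control shRNA cells 35 were at least 1.5-fold lower, against 20.7% of all genes, and 21 at least 2-fold lower, against 10.3%. None was at least 1.5-fold higher in SCM in PIAS1 shRNA2 cells, where 20.5% of all genes were, and none in control shRNA cells, where 20.2% were.

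The comparison of the media in PIAS1 shRNA2 cells and that in control shRNA cells rest on different arrays. In both lines 34 factors were at least 1.5-fold lower in SCM against 15.3% of all genes, and 19 were at least 2-fold lower, against 7.2%. For 36 of the 37 factors both SCM arrays were below both DMEM arrays. The exception was POLR1B, a core subunit of RNA polymerase I, whose signal was below the median signal on every array. It was read from a single probe set and was not read when only plain _at sets were used. The count of 36 was not made over all genes. Of the 9374 genes above the floor, 4558 were lower in SCM in PIAS1 shRNA2 cells and 4275 in control shRNA cells. Most single probe sets of the factors gave the same direction. Of 51 above the floor in at least 1 array, 46 were lower in SCM in both lines and 40 at least 1.5-fold lower in both. The shares over all probe sets of the arrays were not counted. The members lie on 19 chromosomes, with at most 5 on 1 of them, chromosome 2.

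**Figure D1:**
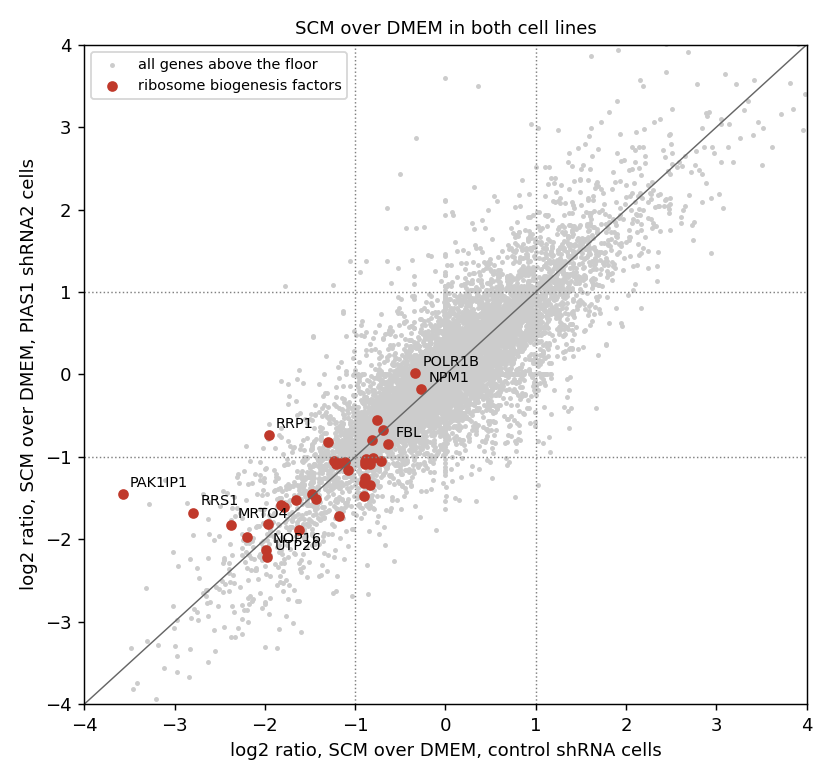
Log2 ratio of SCM over DMEM in PIAS1 shRNA2 cells (vertical axis) against that in control shRNA cells (horizontal axis), with the 37 ribosome biogenesis factors in red over all 9374 genes above the floor in grey; dotted lines mark 2-fold, the solid line equal ratios, and 21 genes lie outside the axes. The factors lie in the lower left, with 19 of them at least 2-fold lower in both lines, and POLR1B and NPM1 nearest to 0.

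The start regions of these genes were read for the MYC recognition sequence, the E-box CACGTG, since no DNA binding was measured on the arrays. In RefSeq sequences of GRCh38.p14, 33 of the 37 factors had a window of 300 bases, 250 before the transcription start and 50 from it on. The 6 letters CACGTG, which read the same on both strands, occurred in 15 of these 33 windows (45.5%), compared with 10.2% of 7697 windows of genes above the floor and 7.43% of all 27305 windows. Of the 17 matches, 14 lay within 50 bases of the start, and UTP18 and IMP4 had a second one further before it. The positions of matches in other genes were not counted, so nearness to the start cannot be called particular to these factors. A match is a string of letters and not a measured binding site. The 15 genes with a match had a median log2 ratio of SCM over DMEM, averaged over both lines, of -1.19 and a range of -2.51 to -0.65, and the 18 without one a median of -1.10 and a range of -2.08 to -0.16, so that the ranges overlapped widely.

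The 4 windows with their only match beginning less than 20 bases before the start are shown with the match in capitals, together with NOP16, among the genes with the lowest ratios, and NPM1, whose ratio was close to 0, as windows without a match. Each runs 5′ to 3′ on the gene's strand, with 70 bases before the start and 10 from it on, at chr6:10694902-10694981 (plus strand) for PAK1IP1, chr12:101280035-101280114 (plus) for UTP20, chr3:51941895-51941974 (minus) for RRP9, chr11:34105559-34105638 (plus) for NAT10, chr5:176388589-176388668 (minus) for NOP16 and chr5:171387779-171387858 (plus) for NPM1 in GRCh38.p14.
PAK1IP1: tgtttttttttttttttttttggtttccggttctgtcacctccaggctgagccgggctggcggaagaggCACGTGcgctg
UTP20: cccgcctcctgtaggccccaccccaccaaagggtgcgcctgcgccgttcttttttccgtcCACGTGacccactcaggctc
RRP9: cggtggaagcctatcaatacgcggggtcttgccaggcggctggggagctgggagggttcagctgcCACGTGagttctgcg
NAT10: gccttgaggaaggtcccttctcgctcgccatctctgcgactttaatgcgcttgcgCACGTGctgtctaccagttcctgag
NOP16: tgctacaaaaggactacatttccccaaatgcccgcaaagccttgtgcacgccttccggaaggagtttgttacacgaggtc
NPM1: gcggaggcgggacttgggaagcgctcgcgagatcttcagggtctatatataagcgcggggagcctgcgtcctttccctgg
The match began 1 base before the start in PAK1IP1, 10 before it in UTP20, 5 in RRP9 and 15 in NAT10. The search covered 1 sequence of letters only, and its absence from the windows of NOP16 and NPM1 says nothing else about them.

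Among the snoRNP proteins, FBL, the methyltransferase of the box C/D particles that methylate rRNA, was the only factor grouped here as box C/D. RRP9, a protein of the U3 snoRNP, is given with the small subunit. FBL had signals of 15907 in PIAS1 shRNA2 cells and 16894 in control shRNA cells in SCM, and of 28584 and 26175 in DMEM. Both SCM arrays were below both DMEM arrays, by 1.80-fold in PIAS1 shRNA2 cells and 1.55-fold in control shRNA cells. GAR1 and NHP2 belong to the box H/ACA particles, which convert uridine to pseudouridine in rRNA. GAR1 had 2014 and 2556 in SCM in PIAS1 shRNA2 and control shRNA cells, against 5113 and 4575 in DMEM, 2.54-fold and 1.79-fold lower in SCM. For NHP2 the signals were 8455 and 9273 in SCM against 17193 and 17101 in DMEM, 2.03-fold and 1.84-fold lower. FBL, GAR1 and NHP2 were thus all lower in SCM in both lines, and none of these 3 differed by 1.5-fold between the shRNAs. The largest difference was -0.34 on the log2 scale, for GAR1 in SCM.

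The nucleolar chaperones and organisers differed widely in size of change. NOLC1, a scaffold that binds snoRNPs and RNA polymerase I, had 4987 in PIAS1 shRNA2 cells and 4393 in control shRNA cells in SCM, against 14245 and 11864 in DMEM, 2.86-fold and 2.70-fold lower. Its other probe sets, another pair, were lower by 1.53 to 1.93 on the log2 scale. NCL (nucleolin), which binds the precursor rRNA, had 15219 and 12898 in SCM against 26479 and 22722 in DMEM, 1.74-fold and 1.76-fold lower. NPM3, a nucleoplasmin family protein, had 768 and 942 in SCM against 1838 and 1751 in DMEM, 2.39-fold and 1.86-fold lower. NPM1 (nucleophosmin), the histone chaperone that forms much of the outer nucleolus, changed least of this group, with 45888 and 41718 in SCM against 51832 and 50281 in DMEM, 1.13-fold and 1.20-fold lower. Its other 2 probe sets gave log2 ratios of -0.64 and -0.48 in PIAS1 shRNA2 cells and -0.34 and -0.42 in control shRNA cells, the first of them past 1.5-fold. Read from the brightest set, NPM1 was with POLR1B under 1.5-fold in both lines.

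In rDNA transcription, 4 of 5 factors were at least 1.5-fold lower in SCM in both lines and POLR1B was not. POLR1B had 520 in PIAS1 shRNA2 cells and 386 in control shRNA cells in SCM, against 513 and 487 in DMEM. The signals of this polymerase subunit overlapped between the media, with log2 ratios of 0.02 in PIAS1 shRNA2 cells and -0.33 in control shRNA cells. POLR1C, a subunit shared by RNA polymerases I and III, had 1440 and 1491 in SCM against 3056 and 2760 in DMEM, 2.12-fold and 1.85-fold lower. Its second probe set gave smaller log2 ratios of -0.76 and -0.50, under 1.5-fold in control shRNA cells. POLR1E, a subunit particular to RNA polymerase I, had 856 and 1238 in SCM against 2804 and 2807 in DMEM, 3.28-fold and 2.27-fold lower. POLR1E was also the factor furthest below control in PIAS1 shRNA2 cells in SCM, at -0.53 on the log2 scale, with nearly equal signals in DMEM. MYBBP1A, a nucleolar protein that binds MYB, had 1209 and 1086 in SCM against 2443 and 1899 in DMEM, 2.02-fold and 1.75-fold lower. DDX21, an RNA helicase that couples polymerase I transcription to rRNA processing, had 9543 and 7444 in SCM against 27362 and 23503 in DMEM, 2.87-fold and 3.16-fold lower, the largest mean change of this group.

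**Figure D2:**
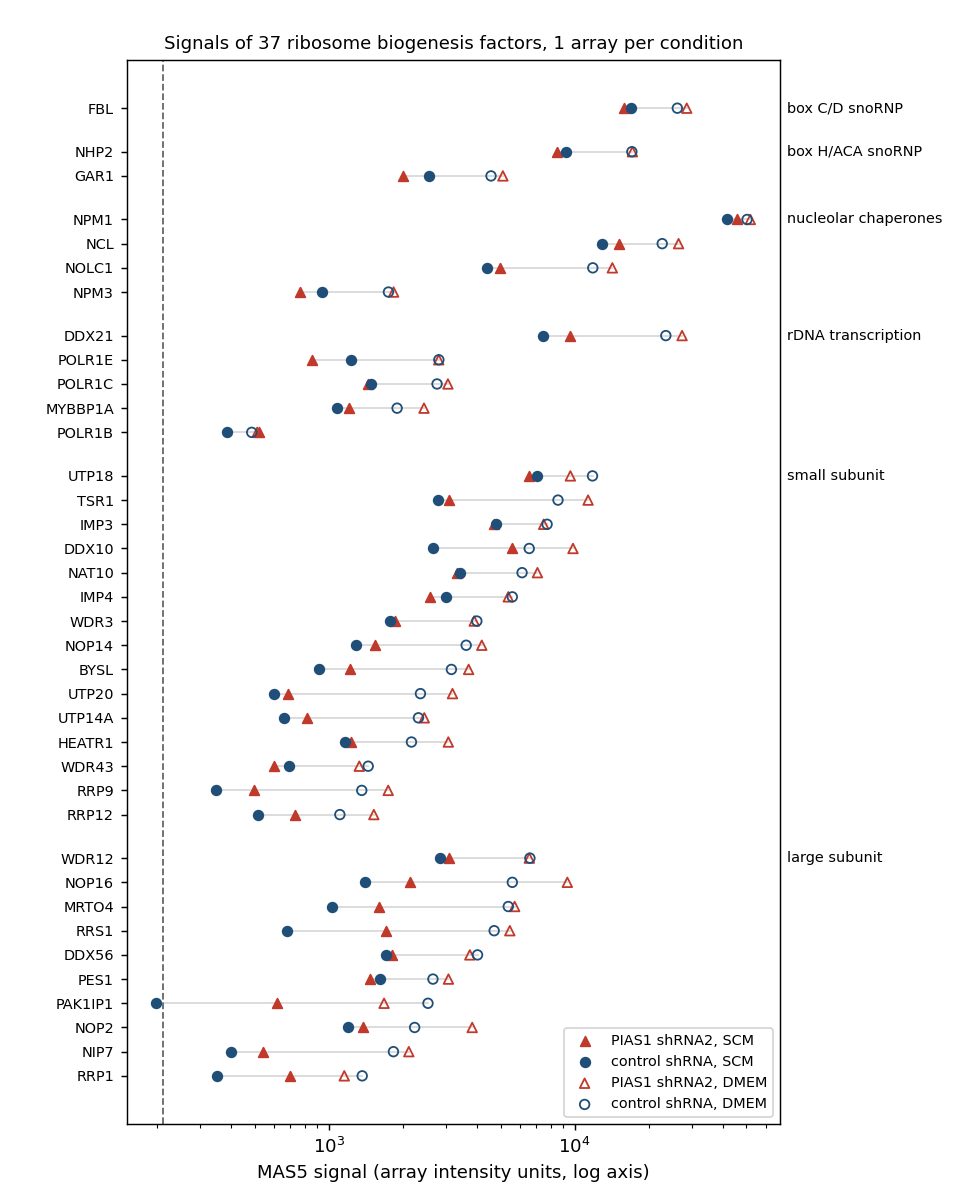
MAS5 signals (log axis) of the 37 ribosome biogenesis factors by role, with filled symbols for SCM, open symbols for DMEM, triangles for PIAS1 shRNA2 and circles for control shRNA cells, 1 array each; a dashed line marks the floor at 213. Except for POLR1B, both filled symbols lie left of both open symbols, and the only signal below the floor is PAK1IP1 in control shRNA cells in SCM (200).

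The 15 factors of the small subunit had median log2 ratios of SCM over DMEM of -1.15 in PIAS1 shRNA2 cells and -1.17 in control shRNA cells, and 14 and 15 of them were at least 1.5-fold lower. UTP20, a large scaffold protein of the small-subunit processome, had the lowest ratio of all 37 in PIAS1 shRNA2 cells. It had 685 in PIAS1 shRNA2 cells and 602 in control shRNA cells in SCM, against 3190 and 2363 in DMEM, 4.66-fold and 3.92-fold lower. RRP9, a protein of the U3 snoRNP that guides early cleavage, had 495 and 350 in SCM against 1747 and 1364 in DMEM, 3.53-fold and 3.90-fold lower. TSR1, a GTPase-like protein of late small-subunit particles, had 3078 and 2772 in SCM against 11352 and 8564 in DMEM, 3.69-fold and 3.09-fold lower. The 3 are known to act early, with the U3 RNA, or late in the same path, and all were at least 3-fold lower in both lines. For TSR1 the 3 probe sets did not agree in size: a second gave log2 ratios of -1.36 and -1.46, and another, of lower signal, -0.29 and 0.33.

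UTP14A, which in yeast activates a helicase that releases the U3 RNA, had 814 in PIAS1 shRNA2 cells and 657 in control shRNA cells in SCM, against 2449 and 2318 in DMEM, 3.01-fold and 3.53-fold lower. BYSL (bystin), a late factor needed for export of the small subunit, had 1221 and 911 in SCM against 3710 and 3158 in DMEM, 3.04-fold and 3.46-fold lower. NOP14, a processome protein, had 1541 and 1298 in SCM against 4196 and 3626 in DMEM, 2.72-fold and 2.79-fold lower. The t-UTP proteins HEATR1 and WDR43, which join the precursor rRNA first and also act in its transcription, were lower as well. HEATR1 had 1234 and 1166 in SCM against 3068 and 2172 in DMEM, 2.49-fold and 1.86-fold lower. A second probe set of HEATR1 gave smaller log2 ratios of -1.12 and -0.55, the latter, in control shRNA cells, under 1.5-fold. WDR43 had 599 and 688 in SCM against 1333 and 1449 in DMEM, 2.23-fold and 2.11-fold lower.

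WDR3, of the UTP-B part of the processome, had 1862 in PIAS1 shRNA2 cells and 1779 in control shRNA cells in SCM, against 3909 and 4006 in DMEM, 2.10-fold and 2.25-fold lower. UTP18, of the same UTP-B part, had 6540 and 7020 in SCM against 9617 and 11831 in DMEM, 1.47-fold and 1.69-fold lower. These 2 proteins of 1 assembly therefore differed in size of change in these arrays, UTP18 being the least changed of the small-subunit group in PIAS1 shRNA2 cells. IMP3 and IMP4 bind the U3 RNA as a pair. IMP3 had 4710 and 4788 in SCM against 7488 and 7733 in DMEM, 1.59-fold and 1.61-fold lower. IMP4 had 2592 and 3004 in SCM against 5378 and 5584 in DMEM, 2.07-fold and 1.86-fold lower.

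NAT10, the acetyltransferase of small-subunit rRNA, had 3340 in PIAS1 shRNA2 cells and 3416 in control shRNA cells in SCM, against 7066 and 6118 in DMEM, 2.12-fold and 1.79-fold lower. RRP12, a HEAT-repeat protein of late pre-ribosomal particles, had 732 and 514 in SCM against 1527 and 1111 in DMEM, 2.09-fold and 2.16-fold lower. It is read here from the brighter of its 2 probe sets above the floor, and the other was lower by 1.82 and 1.37 on the log2 scale. DDX10, an RNA helicase whose yeast counterpart frees a guide RNA from the precursor, had 5563 and 2649 in SCM against 9856 and 6542 in DMEM, 1.77-fold and 2.47-fold lower.

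The 10 factors of the large subunit had lower medians than the other roles in both lines, at -1.46 in PIAS1 shRNA2 cells and -1.97 in control shRNA cells, and all 10 were at least 1.5-fold lower in SCM in both lines. NOP16, a nucleolar protein of early large-subunit particles and a known MYC target, had 2138 in PIAS1 shRNA2 cells and 1407 in control shRNA cells in SCM, against 9347 and 5585 in DMEM, 4.37-fold and 3.97-fold lower. A second probe set of NOP16 gave log2 ratios of -2.09 and -2.37, but the other 2 sets, with signals of 163 to 415, gave 0.00 and 0.31 and -0.51 and 0.13. NIP7, which is needed for maturation of the large subunit, had 541 and 400 in SCM against 2119 and 1835 in DMEM, 3.91-fold and 4.59-fold lower. MRTO4, which holds the place of the stalk protein P0 in pre-ribosomes, had 1604 and 1036 in SCM against 5708 and 5377 in DMEM, 3.56-fold and 5.19-fold lower. These 3 were at least 3.5-fold lower in each line.

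RRS1, which with its partner RPF2 brings the 5S RNP into the particle, had 1708 in PIAS1 shRNA2 cells and 680 in control shRNA cells in SCM, against 5454 and 4711 in DMEM, 3.19-fold and 6.93-fold lower. PAK1IP1, a WD-repeat protein that binds the kinase PAK1 and is required for the large subunit, had 616 and 200 in SCM against 1681 and 2535 in DMEM. Its signal in control shRNA cells in SCM was below the floor, so PAK1IP1 was 2.73-fold lower in PIAS1 shRNA2 cells and at least 11.9-fold lower in control shRNA cells. RRP1, a nucleolar protein of large-subunit rRNA processing, had 696 and 353 in SCM against 1158 and 1370 in DMEM, 1.66-fold and 3.88-fold lower. For RRS1, PAK1IP1 and RRP1 the log2 ratio of SCM over DMEM in PIAS1 shRNA2 cells exceeded that in control shRNA cells by at least 1, as it was for 212 of the 9374 genes above the floor. It was at least 1 lower for none of the factors and for 219 of all genes.

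NOP2, the methyltransferase that makes methylcytosine in large-subunit rRNA, had 1375 in PIAS1 shRNA2 cells and 1201 in control shRNA cells in SCM, against 3836 and 2238 in DMEM, 2.79-fold and 1.86-fold lower. PES1 and WDR12 belong with BOP1 to the PeBoW complex of large-subunit processing. PES1 had 1478 and 1624 in SCM against 3071 and 2656 in DMEM, 2.08-fold and 1.64-fold lower. WDR12 had 3090 and 2832 in SCM against 6548 and 6583 in DMEM, 2.12-fold and 2.32-fold lower. The helicase DDX56, found in large-subunit particles, had 1806 and 1713 in SCM against 3751 and 4032 in DMEM, 2.08-fold and 2.35-fold lower. These 4 had smaller changes than NOP16, NIP7 and MRTO4 in both lines.

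Between PIAS1 shRNA2 and control shRNA cells the factors differed far less than between the media; these comparisons use the same 4 arrays as those of the media. The median log2 ratio between the shRNAs, PIAS1 shRNA2 over control, was 0.15 in SCM and 0.16 in DMEM, with 0 over all genes in both media. In SCM 6 of the 37 factors were at least 1.5-fold higher in PIAS1 shRNA2 cells, against 6.61% of all genes, and none was at least 1.5-fold lower, against 5.94%. In DMEM 3 were at least 1.5-fold higher, against 5.27% of all genes, and 1 was at least 1.5-fold lower, against 3.77%. The sign was positive in both media for 20 factors, negative in both for 5 and opposite for 12.

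The 6 higher in SCM were PAK1IP1 (at least 2.89-fold), RRS1 (2.51-fold), DDX10 (2.10-fold), RRP1 (1.97-fold), MRTO4 (1.55-fold) and NOP16 (1.52-fold), and 5 of them are among the 10 factors of the large subunit, the exception being DDX10. The large-subunit group had a median log2 ratio of 0.52 in SCM and 0.15 in DMEM, and the small-subunit group 0.15 in SCM and 0.21 in DMEM. For 42 other large-subunit factors, of a further list described below, the median was only 0.10 in SCM and 0.11 in DMEM. For 37 other small-subunit factors it was 0.06 and 0.11. All 6 were lower in SCM than in DMEM in each line. The values of PAK1IP1 and RRP1 lie near the floor in control shRNA cells in SCM (200 and 353). When the floor was set at the highest median signal of the arrays, 605, the log2 ratio was 0.02 for PAK1IP1 and 0.20 for RRP1, both under 1.5-fold.

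In DMEM the factors at least 1.5-fold higher in PIAS1 shRNA2 cells were NOP2 (1.71-fold), NOP16 (1.67-fold) and DDX10 (1.51-fold), and PAK1IP1 was 1.51-fold lower. NOP16 and DDX10 were thus at least 1.5-fold higher in both media. The bright second probe set of NOP16 gave smaller log2 ratios of 0.34 in SCM and 0.06 in DMEM. For PAK1IP1 the direction was opposite in the media, with 616 against 200 in SCM and 1681 against 2535 in DMEM in PIAS1 shRNA2 and control shRNA cells. Read from their brightest sets, HEATR1, RRP12, UTP20 and TSR1 followed below 1.5-fold in DMEM, with log2 ratios of 0.50, 0.46, 0.43 and 0.41. Other probe sets above the floor differed from these, with 0.21 for HEATR1, 0.91 for RRP12, and 0.68 and 0.02 for TSR1. Those of 0.91 and 0.68 were past 1.5-fold. UTP18, RRP1 and WDR43 were lowest after PAK1IP1 in DMEM, at -0.30, -0.24 and -0.12. In SCM, POLR1E, GAR1, NPM3, IMP4 and WDR43 were the 5 lowest, at -0.53, -0.34, -0.29, -0.21 and -0.20, all under 1.5-fold.

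**Figure D3:**
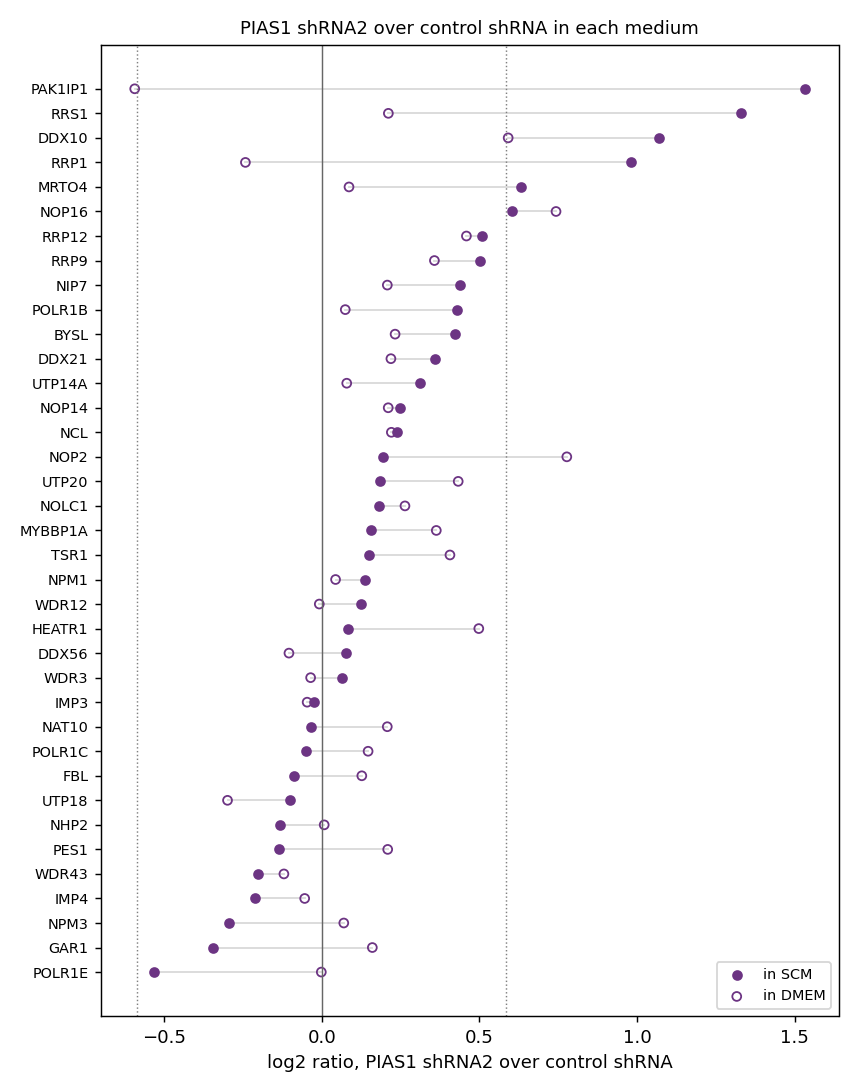
Log2 ratio between the shRNAs, PIAS1 shRNA2 over control, for each of the 37 factors, in SCM (filled) and in DMEM (open), 1 array per condition; dotted lines mark 1.5-fold. In SCM 6 factors lie right of the upper line, with PAK1IP1, RRS1, DDX10 and RRP1 furthest, and in DMEM only PAK1IP1 lies left of the lower line; the PAK1IP1 value in SCM is a lower bound.

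To set the 37 factors in their pathway, 110 other ribosome biogenesis factors were read from a list of 139, 108 of them above the floor. Their median log2 ratio of SCM over DMEM was -0.81 in PIAS1 shRNA2 cells and -0.79 in control shRNA cells. At least 1.5-fold lower were 71 in PIAS1 shRNA2 cells and 72 in control shRNA cells, beside 20.4% and 20.7% of all genes. At least 1.5-fold higher were 4 and 3, beside 20.5% and 20.2%. By role, the medians in PIAS1 shRNA2 and control shRNA cells were -1.003 and -1.021 for 42 large-subunit factors, -0.59 and -0.65 for 37 small-subunit factors, -0.82 and -1.06 for 18 rRNA trimming factors (RNA exosome and RNase MRP proteins) and -0.31 and -0.86 for 11 factors of rDNA transcription. Between the shRNAs 9 of the 108 were at least 1.5-fold higher in PIAS1 shRNA2 cells in SCM and none lower, beside 6.61% and 5.94% of all genes, and in DMEM 4 were higher and none lower, beside 5.27% and 3.77%. In SCM the highest were RRN3, the initiation factor of RNA polymerase I, at 1.12 and EXOSC4, a subunit of the RNA exosome, at 1.06 on the log2 scale. Their log2 ratios in DMEM were -0.12 and 0.37. EXOSC4 had 2660 in PIAS1 shRNA2 cells against 1280 in control shRNA cells in SCM, and 5700 against 4423 in DMEM. The lowest in SCM were NOC2L at -0.48 and NLE1 at -0.47, both factors of the large subunit. In DMEM these 2 were at 0.19 and 0.20.

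The cytosolic ribosomal proteins, which these factors assemble into ribosomes, were within 1.5-fold between the media on these arrays. Of 80 listed, 52 were read, with median log2 ratios of SCM over DMEM of -0.06 in PIAS1 shRNA2 cells and 0.07 in control shRNA cells, and none reached 1.5-fold in any of the 4 comparisons. Their probe sets were bright: 50 had signals between 23988 and 109607 on every array, whereas NPM1 was the only biogenesis factor with at least 20000 on all 4, and a part of this brightness in their small ratios was not tested. The 2 dimmer sets, RPL27A and RPLP2, which were picked for their signal, had log2 ratios of -0.32 and -0.29 in PIAS1 shRNA2 cells and -0.12 and -0.33 in control shRNA cells, near the low end of the list. Their ratios ran between -0.35 and 0.27 in PIAS1 shRNA2 cells, whereas 36 of the 37 biogenesis factors were at -0.18 or lower there. A list of replication genes, for licensing, DNA synthesis and nucleotide supply, moved in the direction of the biogenesis factors and further. Such genes mark cells that prepare to copy or are copying DNA. All 20 were lower in SCM in both lines, with medians of -2.56 in PIAS1 shRNA2 cells and -2.42 in control shRNA cells. Their part in the lower signals of the biogenesis factors was not tested. In PIAS1 shRNA2 against control shRNA cells in SCM the replication genes had a median of -0.26, against 0.15 for the biogenesis factors.

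**Figure D4:**
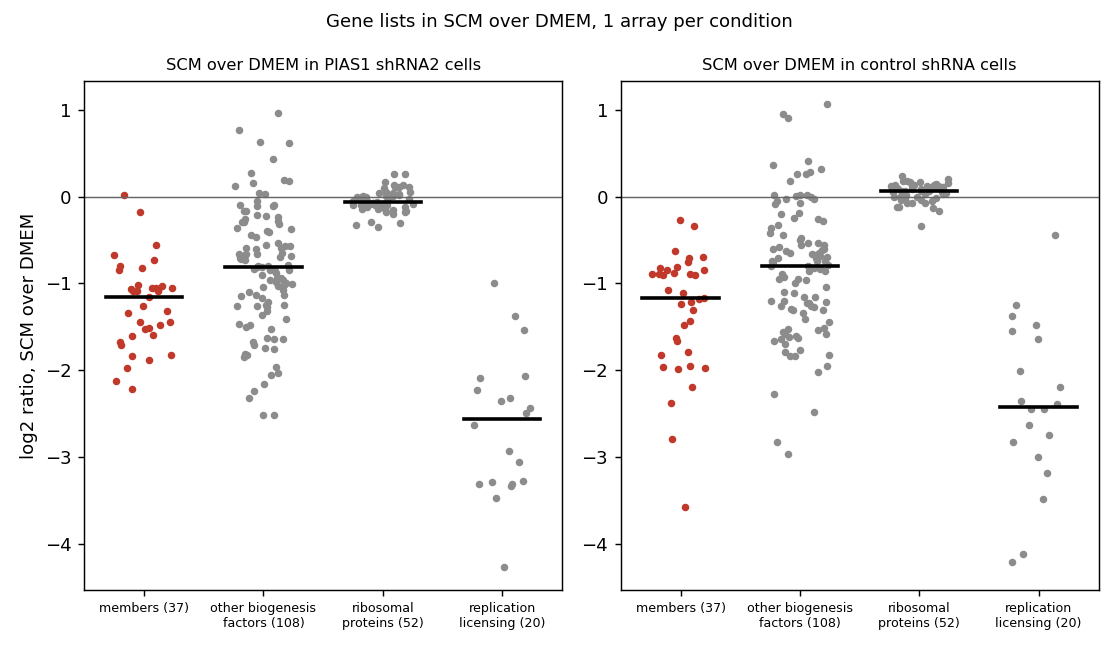
Log2 ratio of SCM over DMEM in PIAS1 shRNA2 cells (left) and control shRNA cells (right) for the 37 ribosome biogenesis factors, 108 other biogenesis factors, 52 ribosomal proteins and 20 replication genes. The last list, labelled replication licensing, also holds genes of DNA synthesis and nucleotide supply. Each point is a gene and each bar a median. The medians in PIAS1 shRNA2 cells are -1.15, -0.81, -0.06 and -2.56, and the ribosomal proteins lie close to 0 in both lines.

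MYC and its partners and antagonists were read beside the factors, as E-box binding proteins. MYC had 5504 in PIAS1 shRNA2 cells and 4617 in control shRNA cells in SCM, against 10695 and 9072 in DMEM, log2 ratios of -0.96 and -0.97. Both SCM arrays were below both DMEM arrays, and MYC was higher in PIAS1 shRNA2 cells by 0.25 in SCM and 0.24 in DMEM on the log2 scale. MXI1, which competes with MYC for their partner MAX and was named after its values were seen, went the other way. It had 17535 and 20616 in SCM against 3167 and 3733 in DMEM, 2.47 higher on the log2 scale in each line. MXD3, another protein that binds MAX in place of MYC, also named after its values were seen, was lower like MYC, with 343 and 844 in SCM against 1495 and 1977 in DMEM, log2 ratios of -2.12 and -1.23. Of the MYC network genes read above the floor, 10 in all, 4 were at least 1.5-fold higher and 2 lower in SCM in PIAS1 shRNA2 cells, and 3 higher and 3 lower in control shRNA cells. MYC protein was not measured, and the part of MYC, MXI1 and MXD3 in the lower signals of the factors was not tested.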

How the data were processed

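Biotin-labelled total RNA of 4 conditions, 1 sample each, was hybridised to Affymetrix human genome arrays. The authors deposited linear signal intensities, made with MAS5 as their processing notes to the repository state; the version and settings are not stated in the sources used here. They had been scaled per array, to a mean of 2501 when 2% was trimmed at either end. Precision is limited by the number of arrays. Of 22277 probe sets, 19070 listed for 1 gene in the platform annotation were used; 1043 with several genes and 2164 with none listed were left out.

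For a gene with several probe sets, the one of highest mean log2 signal was used. Before ratios were taken, signals were raised to a floor, the 75th percentile of 94 probe sets for genes that other tissues express, on the array where it was highest (213); a ratio with 1 side below it is a bound. Ratios of at least 1.5-fold were counted over the 9374 genes above the floor in at least 1 array. No test was made. The members and lists were chosen with earlier results of these data known. All members could be named, in full those at least 1.5-fold different in any comparison, with the 5 highest and 5 lowest ratios of each, beside PIAS1, MYC and at most 2 and 2 extremes of a list; MXI1, MXD3, 2 ribosomal proteins and the marker genes are named outside this rule. Alternatives were no floor or a higher one, 2 other scalings, 2 other readings of a gene and a 2-fold count. RefSeq windows came from GRCh38.p14. Python 3.11.15, NumPy 2.4.6, pandas 2.3.3 and matplotlib 3.10.9 were used, and the steps were tested on simulated data.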

Additional observations from a re-analysis of the deposited data

Results flagged for a closer look

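PAK1IP1 drew attention because its difference between the shRNAs ran in opposite directions in the media. Its log2 ratio, PIAS1 shRNA2 over control, was at least 1.53 in SCM and -0.59 in DMEM, which differ by 2.13. The signals were 616 in PIAS1 shRNA2 cells against 200 in control shRNA cells in SCM, and 1681 against 2535 in DMEM. Each is 1 array and 1 probe set, the signal of 200 was below the floor, and the difference was not tested.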

How the results depend on the processing

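The median ratios of the factors, and the sign of those of -1.15 and -1.17 between the media, stayed within the usual range between probe sets of a gene (0.25 to 0.36 on the log2 scale) under no floor, a higher floor, 2 other scalings, the mean of all probe sets and plain _at probe sets. With plain _at sets only, 23 factors could be read, and the factors at least 1.5-fold lower in SCM numbered 22 in PIAS1 shRNA2 cells and 21 in control shRNA cells, with 3 at least 1.5-fold higher in PIAS1 shRNA2 cells in SCM. Within these 23, RRP12 at 0 in both lines (a set below the floor), POLR1C at -0.50 in control shRNA cells, and NOP16 at 0.34 between the shRNAs in SCM lost the call through the other probe set, and MRTO4 and RRP1 were not read. At 2-fold, 21 were lower in SCM in control shRNA cells, 3 were higher in PIAS1 shRNA2 cells in SCM, and 0 were higher and 0 lower in DMEM, by the stricter limit itself. Of 474 recomputed ratios of single factors, 453 moved less than the range between probe sets and 20 moved more. The other, NOP16 between the shRNAs in SCM, turned to -0.00082 as the mean of its 4 probe sets, 2 of them dim. The ratios of the media were taken within each line, and a joint fit of line and medium, which leaves 1 residual degree of freedom, was not run. Without replicate arrays the spread between arrays is not known, so no difference can be set against it, and signals under the floor give bounds only. A drop of all RNA per cell would not be seen after scaling of each array.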
